A study of Mus musculus with 6 samples.

Results

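The Period and cryptochrome genes code for the repressors of the mammalian circadian clock. Of 6 repressor genes named for this account (Per1, Per2, Per3, Cry1, Cry2 and Ciart), 4 were found by their Ensembl identifiers among the 8941 genes listed in the disome tables of mouse liver. These were Per1 (ENSMUSG00000020893), Per2 (ENSMUSG00000055866), Cry1 (ENSMUSG00000020038) and Cry2 (ENSMUSG00000068742). Per3 and Ciart were not analysed here. Disome footprints are pieces of messenger RNA shielded from nuclease by a collided pair of ribosomes, and their amount per gene was given as RPKM, the reads per kilobase after the authors' scaling of each library.

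The livers came from male C57BL/6JRj mice, an inbred strain, aged 11 to 12 weeks. The mice were held for 2 weeks in a daily cycle of 12 h light followed by 12 h dark and killed in that cycle, with no other treatment named. The groups were zeitgeber times (ZT, counted in hours from lights on) 0, 2 and 12. Each had 2 libraries, and every library pooled 2 livers, so that n below counts pools and single animals cannot be told apart. Reads recovered from the tables totalled 6346387 to 12322651 per library, and the median gene held 67 to 144 reads. The ZT12 libraries were the deepest, and the second ZT2 library stood apart with 250 genes listed at 0, against 4 to 97 in the others. The other genes carry no symbols here, so liver markers and markers of other cell types were not checked.

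In the clock, the activators CLOCK and BMAL1 bind E-box sequences in DNA and switch on the Per and Cry genes. The PER and CRY proteins then accumulate, enter the nucleus together and inhibit CLOCK and BMAL1, which closes a loop of about a day. PER proteins are scaffolds that bring casein kinase 1 to the complex, and CRY proteins do most of the repression by binding CLOCK and BMAL1 directly. In mouse liver, Per1 and Per2 transcripts are known to be high around dusk and low in the morning, while Cry1 transcripts reach their height later in the night.

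The promoters of the repressors are shown because E-boxes in them are the route by which the loop acts. RefSeq windows of 300 bases (250 before to 50 after an annotated start, build GRCm38.p6) were matched by symbol for 3 of the 4 genes, Per1 with a pair of starts. Each window was searched on both strands for the E-box CACGTG, the E'-box CACGTT, the D-box forms TTATGTAA and TTACGTAA, the ROR element core AGGTCA and the cAMP response element TGACGTCA. Motifs found are in capitals, and no hits overlapped. The sequences read 5′ to 3′ on the strand of the gene.
Per1, first window, chr11:69098699-69098998, plus strand: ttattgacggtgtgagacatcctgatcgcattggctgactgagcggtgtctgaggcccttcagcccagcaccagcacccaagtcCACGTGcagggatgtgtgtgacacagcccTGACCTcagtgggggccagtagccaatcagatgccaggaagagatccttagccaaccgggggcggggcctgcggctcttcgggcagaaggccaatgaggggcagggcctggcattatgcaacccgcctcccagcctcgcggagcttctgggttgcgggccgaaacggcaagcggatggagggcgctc
Cry1, chr10:85185005-85185304, minus strand: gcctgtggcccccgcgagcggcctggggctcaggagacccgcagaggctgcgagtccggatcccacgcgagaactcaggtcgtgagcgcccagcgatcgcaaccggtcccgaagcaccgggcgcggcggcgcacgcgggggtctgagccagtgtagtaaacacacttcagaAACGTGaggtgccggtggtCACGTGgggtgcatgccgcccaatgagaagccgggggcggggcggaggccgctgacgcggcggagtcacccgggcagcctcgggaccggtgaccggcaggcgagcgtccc
Cry2, chr2:92434020-92434319, minus strand: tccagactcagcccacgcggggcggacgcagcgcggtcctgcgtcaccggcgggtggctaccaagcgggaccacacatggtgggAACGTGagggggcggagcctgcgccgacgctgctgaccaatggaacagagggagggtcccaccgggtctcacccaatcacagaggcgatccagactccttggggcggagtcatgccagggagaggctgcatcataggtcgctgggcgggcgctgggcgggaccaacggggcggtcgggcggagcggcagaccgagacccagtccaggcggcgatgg

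The E-box lay 166 bases before the start in the first Per1 window and 60 bases before the start of Cry1. An E'-box, read as AACGTG on the gene strand, lay 79 bases before the start of Cry1 and 166 bases before that of Cry2. The first Per1 window also held the ROR element core on the opposite strand, 137 bases before the start. None of these letters was found in the second Per1 window, and neither D-box form nor the cAMP response element was found in any of the 4 windows of the 3 genes. Among all 32851 windows of the same length, 7.15% held the E-box, 4.685% the E'-box and 16.255% the ROR element core. The D-box forms were in 0.938% and 0.119% of windows and the cAMP response element in 1.79%. A match here describes letters and not a bound site.

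Disome reads on Per1 messenger were scarce in the morning and far more frequent at dusk. The RPKM of Per1 in single libraries was 0.403 and 0.569 (ZT0), 0.418 and 0.134 (ZT2), then 6.50 and 12.0 (ZT12). Both ZT12 libraries lay far above all 4 morning libraries, and the ZT0 and ZT2 libraries overlapped. Behind these values stood 11 and 17 recovered reads (ZT0), 10 and 4 (ZT2), then 330 and 575 (ZT12), on a coding length of 3873 nucleotides. In these bulk samples fewer expressing cells and fewer disome footprints per cell cannot be told apart, and transcript amount was not analysed here. Per1 passed the filter of a mean of 1 RPKM through its ZT12 libraries alone, since its mean over the 4 morning libraries was 0.381 RPKM.

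Per2 also had its highest level at ZT12, and its lowest at ZT2. Its libraries held 3.12 and 2.06 RPKM (ZT0), 1.20 and 0.138 RPKM (ZT2), then 10.1 and 12.0 RPKM (ZT12). The 3 time points did not overlap, with ZT2 lowest and ZT12 highest. In reads this was 83 and 60 (ZT0), 28 and 4 (ZT2), then 499 and 561 (ZT12), on 3771 coding nucleotides. The ZT2 libraries differed 8.74-fold, and their exact Poisson 95% intervals of 0.799 to 1.74 and 0.0375 to 0.352 RPKM, which cover counting error only, did not overlap.

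Cry1 ran the other way, with its highest level at ZT0. Single libraries gave 6.56 and 6.28 RPKM (ZT0), 4.99 and 3.85 RPKM (ZT2), then 1.68 and 4.14 RPKM (ZT12). Both ZT0 libraries lay above the other 4, while the ZT2 and ZT12 libraries overlapped. The reads numbered 84 and 88 (ZT0), 56 and 54 (ZT2), then 40 and 93 (ZT12), on 1818 coding nucleotides. The ZT12 libraries differed 2.47-fold, with exact Poisson 95% intervals of 1.20 to 2.29 and 3.34 to 5.08 RPKM. Their SD of 0.67 on the log2(RPKM + 1) scale was larger than in 93.7% of tested genes at ZT12.

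Cry2, the closest relative of Cry1, had similar levels in the morning libraries and higher ones at dusk. Its level was 5.67 and 5.62 RPKM (ZT0), 4.65 and 5.77 RPKM (ZT2), then 12.6 and 13.4 RPKM (ZT12). The ZT12 libraries lay 2.18-fold or more above every morning library, and the ZT0 and ZT2 libraries overlapped. The reads numbered 71 and 77 (ZT0), 51 and 79 (ZT2), then 292 and 293 (ZT12), on 1776 coding nucleotides.

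**Figure D1:**
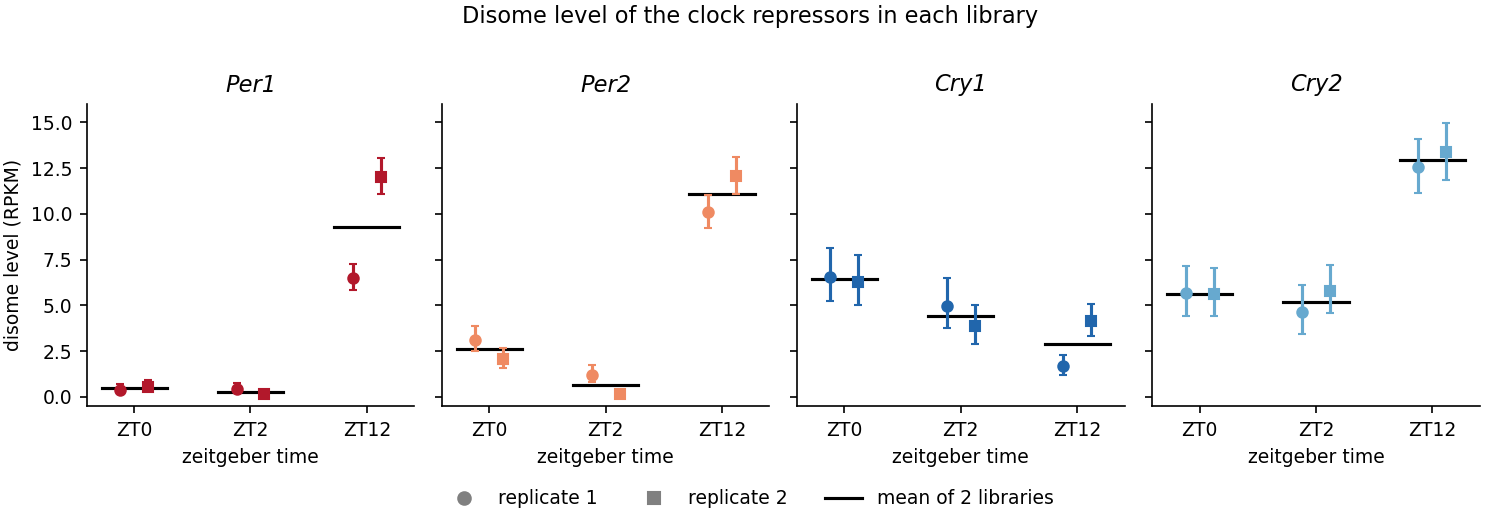
Disome level in RPKM (linear axis) of Per1, Per2, Cry1 and Cry2 in each of the 6 liver libraries by zeitgeber time. Circles and squares are replicates 1 and 2, bars are exact Poisson 95% intervals for counting error, and black lines are means of 2 libraries. Per1, Per2 and Cry2 are highest at ZT12, and Cry1 is highest at ZT0.

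The order of the genes, compared as RPKM and so per length, differed between morning and dusk. At ZT0 Cry1 averaged 6.42 ± 0.197 RPKM and Cry2 5.65 ± 0.0349, above Per2 at 2.59 ± 0.749 and Per1 at 0.486 ± 0.118 (SD, n = 2 each). At ZT2 the order was Cry2 at 5.21 ± 0.791, Cry1 at 4.42 ± 0.804, Per2 at 0.670 ± 0.753 and Per1 at 0.276 ± 0.201 RPKM. Cry2 and Cry1 overlapped at ZT2, as did Per2 and Per1. At ZT12 Cry2 led with 13.0 ± 0.573 RPKM, followed by Per2 with 11.1 ± 1.38, Per1 with 9.26 ± 3.90 and Cry1 with 2.91 ± 1.74 (SD, n = 2 each). Only Per2 and Per1 overlapped among neighbours at ZT12. Set against the listed genes of each library, Per1 lay above 2.46% to 3.40% of them in the morning libraries and above 46.4% and 60.6% at ZT12. Per2 lay above 20.8% and 30.2% of genes (ZT0), 3.20% and 11.8% (ZT2), then 56.8% and 60.6% (ZT12). In the second ZT2 library 250 of 8941 genes were listed at 0. The genes below Per1 (3.15%) and Per2 (3.20%) in that library were therefore mostly genes without reads. Cry1 stood between 35.6% and 47.2% in the morning, with 15.2% and 36.0% at ZT12, and Cry2 between 39.3% and 44.7% in the morning, with 61.4% and 62.6% at ZT12.

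Ratios within a library do not depend on how libraries were scaled. The ratio of Cry2 to Cry1 was 0.865 and 0.896 (ZT0), 0.932 and 1.498 (ZT2), then 7.47 and 3.23 (ZT12). Per length, Cry2 carried several times more disome reads than Cry1 in each ZT12 library, and the ZT0 intervals both held a ratio of 1. The exact binomial 95% intervals were 5.36 to 10.7 and 2.55 to 4.12 at ZT12, against 0.622 to 1.20 and 0.651 to 1.23 at ZT0. At ZT2 they were 0.625 to 1.39 in the first library and 1.05 to 2.16 in the second, the latter above 1. The ratio of Per1 to Per2 was 0.129 and 0.276 (ZT0), 0.348 and 0.974 (ZT2), then 0.644 and 0.998 (ZT12). The intervals lay below 1 in 4 of the 6 libraries, and held 1 in the second libraries of ZT2 (0.181 to 5.23, on 4 reads for each gene) and ZT12 (0.887 to 1.12). No test was made between genes, which are not replicates.

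**Figure D2:**
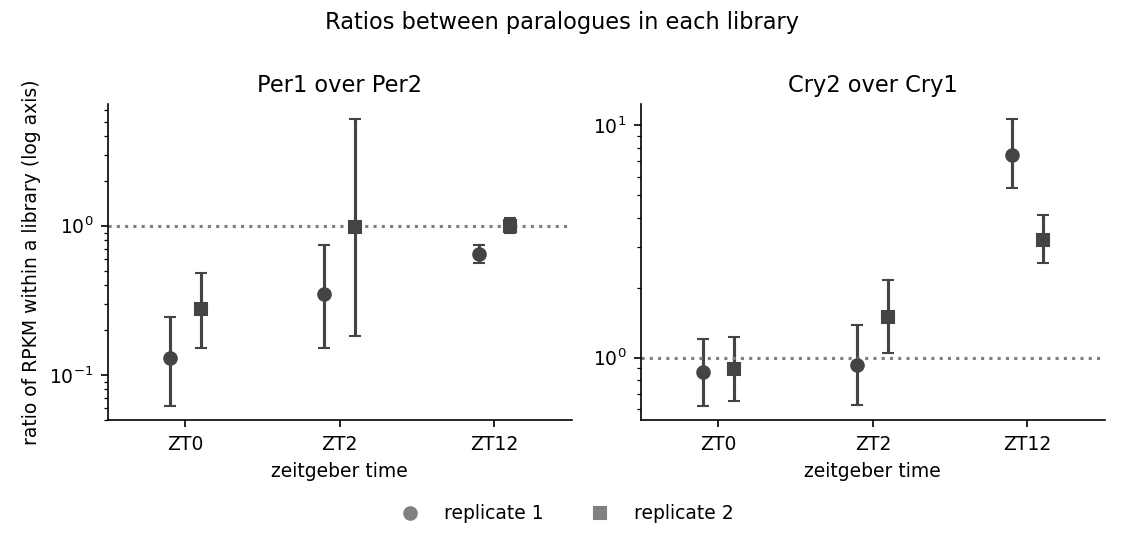
Ratio of RPKM between paralogous genes within each library (log axis) at ZT0, ZT2 and ZT12, with Per1 over Per2 on the left and Cry2 over Cry1 on the right. Bars are exact binomial 95% intervals for counting error, and the dotted line marks a ratio of 1. Cry2 over Cry1 is 7.47 and 3.23 at ZT12 and below 1 in both ZT0 libraries.

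From ZT0 to ZT2, the first hours of light, none of the 4 repressors passed the test. The test was limma on log2(RPKM + 1) over the 8355 genes averaging 1 RPKM or more, with Benjamini-Hochberg adjustment over all of them and a threshold of 0.05. It called 0 of the 4 repressors (0.0239% of tested genes were called), and limma voom on recovered reads also called 0. Without adjustment, 1 of the 4 had a limma p under 0.05, namely Per2, beside 13.7% of all tested genes. Per2 averaged 0.670 RPKM at ZT2 and 2.59 RPKM at ZT0, or -1.17 ± 0.39 (SE) in log2(RPKM + 1), at a limma adjusted p of 0.29. That change was -1.64 without ZT2 replicate 1 (limma adjusted p 0.051), -0.69 without ZT2 replicate 2 (0.30) and -2.73 with voom (0.25). The log2 change of Per1 was -0.23, with a 95% interval of -1.05 to 0.60. That of Cry1 was -0.46 (-1.32 to 0.40) and that of Cry2 was -0.10 (-0.69 to 0.48), with limma adjusted p of 0.61 and 0.88. The libraries of Per2 and Cry1 did not overlap, 2 of 4 repressors, which held for 46.4% of tested genes. The median log2 change was -0.34 over the 4 repressors and -0.04 over all tested genes.

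At ZT12 against ZT0, dusk against dawn, Per1 rose and was the single repressor past the test, 1 of 4 (0.946% of tested genes were called, 0.395% as higher). Per1 averaged 9.26 RPKM at ZT12 and 0.486 RPKM at ZT0, a 19.1-fold ratio that is imprecise, since the ZT0 mean rests on 28 reads. The log2(RPKM + 1) change was 2.74 ± 0.35 (SE), at a limma adjusted p of 0.021, and understates this ratio because of the added 1 RPKM. Among 8355 tested genes it ranked 9 by the size of the rise and 36 by p. Per1 entered the tested set through ZT12, the group where it was high. In the fit on all 8941 listed genes without a filter, its limma adjusted p was 0.020. Any earlier filter on the listed genes is not given, so that fit cannot settle whether Per1 was listed through ZT12 as well. The call depended on the libraries used: the limma adjusted p was 0.23 without either ZT0 library (0.227 and 0.231), 0.068 without ZT12 replicate 1 and 0.19 without ZT12 replicate 2. With a pseudocount of 0.1 it was 0.064. The log2 change ran over the alternatives from 1.35 with a pseudocount of 5 to 4.14 with voom on recovered reads.

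The 3 other repressors missed the threshold. All 4 had an unadjusted limma p under 0.05, as had 14.5% of all tested genes. Per2 averaged 11.1 RPKM at ZT12 and 2.59 RPKM at ZT0, a 4.27-fold ratio, or 1.76 ± 0.39 (SE) in log2, at a limma adjusted p of 0.106. Cry2 averaged 13.0 RPKM at ZT12 and 5.65 RPKM at ZT0, a 2.29-fold ratio, or 1.07 ± 0.25 (SE) in log2, at a limma adjusted p of 0.12. Cry1 averaged 2.91 RPKM at ZT12 and 6.42 RPKM at ZT0, a 0.454-fold ratio, or -0.998 ± 0.37 (SE) in log2, at a limma adjusted p of 0.28. This Cry1 change was -0.53 without ZT12 replicate 1 and -1.47 without ZT12 replicate 2. Per2 and Cry2 passed under some alternatives. Their limma adjusted p was 0.022 and 0.047 when only the ZT0 and ZT12 libraries were fitted, and 0.0058 and 0.039 with voom on recovered reads. Both also passed with either ZT2 library left out, at unchanged log2 changes of 1.76 and 1.07. That nearly repeats the fit of only the ZT0 and ZT12 libraries, since a lone ZT2 library adds nothing to the estimated spread. Cry1 passed in none of its 17 alternatives, with limma adjusted p of 0.125 to 0.871. All 4 repressors had libraries that did not overlap, as had 54.4% of tested genes. The median log2 change was 1.41 over the 4 repressors and -0.01 over all tested genes.

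**Figure D3:**
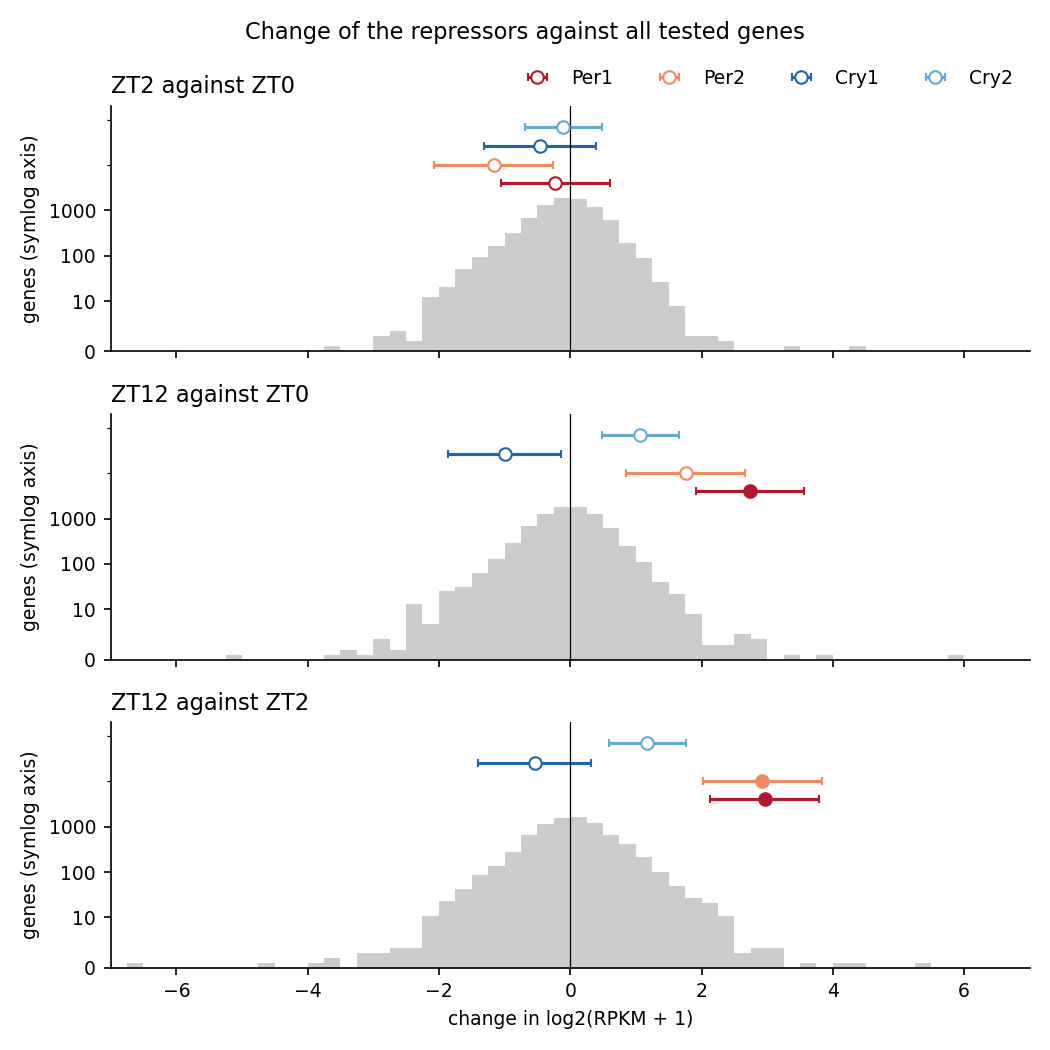
Change in log2(RPKM + 1) of the repressors (points with 95% intervals, filled where limma's adjusted p was under 0.05) above histograms of all 8355 tested genes (grey, symlog axis of gene counts) for each comparison. Per1 is filled at ZT12 against ZT0, Per1 and Per2 are filled at ZT12 against ZT2, and Cry1 lies left of 0 in every panel.

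At ZT12 against ZT2, dusk against the early light phase, both Period genes rose, 2 of 4 repressors (2.06% of tested genes were called, 1.07% as higher). This comparison shares its ZT12 libraries with the one before. Per1 averaged 9.26 RPKM at ZT12 and 0.276 RPKM at ZT2, a 33.6-fold ratio. In log2(RPKM + 1) this was 2.96 ± 0.35 (SE), at a limma adjusted p of 0.013, which was also 0.013 over all 8941 genes without the filter that Per1 passed through ZT12. Per2 averaged 11.1 RPKM at ZT12 and 0.670 RPKM at ZT2, a 16.5-fold ratio. In log2(RPKM + 1) this was 2.93 ± 0.39 (SE), at a limma adjusted p of 0.017. By size of the rise Per1 ranked 9 and Per2 ranked 10 of 8355. The ZT2 means rest on 14 reads for Per1 and 32 reads for Per2, so their ratios are imprecise, and the log2 change ran from 1.41 with a pseudocount of 5 to 5.19 with voom for Per1, and from 1.51 to 4.85 for Per2.

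Both calls fell just short of the threshold when only the ZT2 and ZT12 libraries were fitted, at limma adjusted p of 0.051 for Per1 and 0.060 for Per2. They were likewise lost with either ZT0 library left out, at unchanged log2 changes. That nearly repeats the fit of only the ZT2 and ZT12 libraries, since a lone ZT0 library adds nothing to the estimated spread. Without ZT2 replicate 2, the library with 250 genes listed at 0, both stayed past the threshold, at log2 changes of 2.80 for Per1 and 2.45 for Per2 and limma adjusted p of 0.022 and 0.020. Without ZT12 replicate 1 Per2 had a limma adjusted p of 0.080, and without ZT12 replicate 2 Per1 had 0.12 and Per2 had 0.18. Cry2 averaged 13.0 RPKM at ZT12 and 5.21 RPKM at ZT2, or 1.17 ± 0.25 (SE) in log2(RPKM + 1), at a limma adjusted p of 0.068. It passed without ZT2 replicate 2, at 0.044, and with voom, at 0.028. Cry1 averaged 2.91 RPKM at ZT12 and 4.42 RPKM at ZT2, and its log2 change of -0.54 had a 95% interval of -1.40 to 0.32 and a limma adjusted p of 0.47. That change was -0.07 without ZT12 replicate 1 and -1.01 without ZT12 replicate 2. The libraries of 3 of the 4 did not overlap, all but those of Cry1, as held for 45.9% of tested genes. The median log2 change was 2.05 over the 4 repressors and 0.03 over all tested genes.

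Over the 3 time points together, limma's moderated F test called Per1 and Per2, 2 of 4 (1.26% of tested genes were called). The adjusted p was 0.019 for Per1, 0.035 for Per2, 0.099 for Cry2 and 0.31 for Cry1. Per1 entered the tested set through its ZT12 libraries, and over all 8941 listed genes without that filter its F test adjusted p was 0.018. Both calls were lost when any one ZT0 or ZT12 library was left out, at limma adjusted p of 0.072 to 0.18 for Per1 and 0.12 to 0.24 for Per2. With voom on recovered reads Per1, Per2 and Cry2 all passed, at F test adjusted p of 0.0092, 0.0006 and 0.030. Cry2 also passed with either ZT2 library left out, where ZT2 is a lone library.

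**Figure D4:**
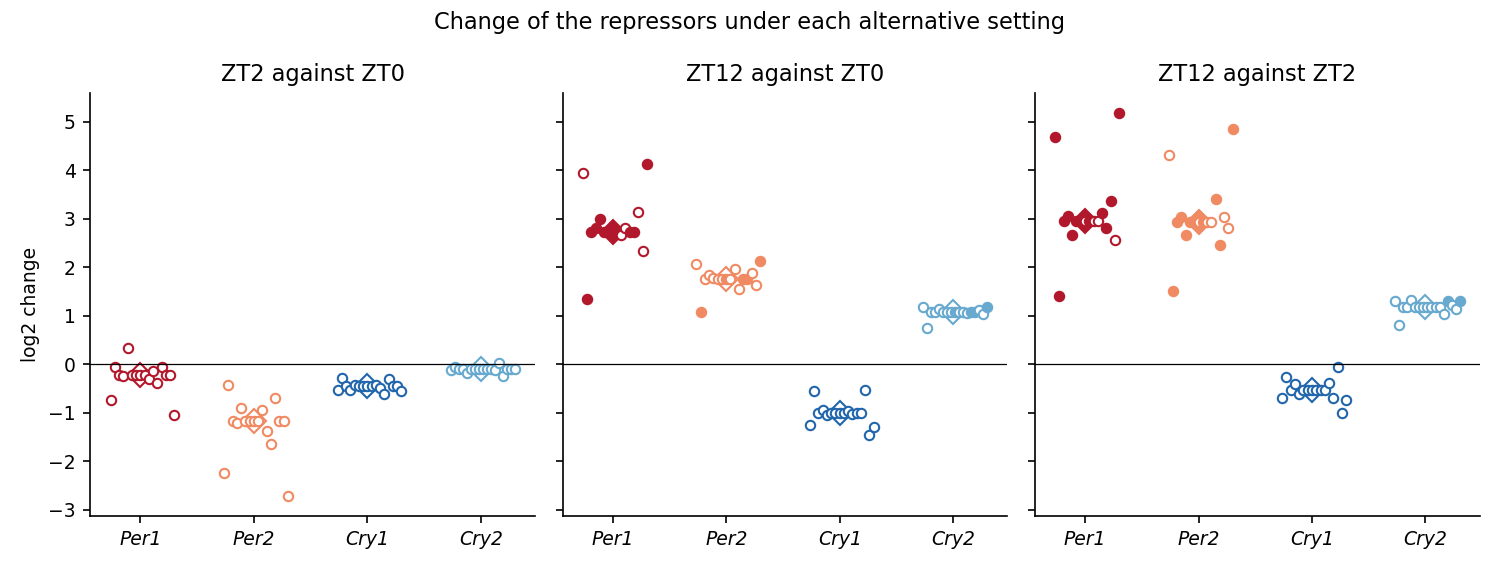
Log2 change of each repressor in each comparison as reported (diamonds) and under each alternative setting (circles), filled where limma's adjusted p was under 0.05. Per1, Per2 and Cry2 lie above 0 and Cry1 lies below 0 under every setting tried at ZT12 against ZT0 and at ZT12 against ZT2.

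Between the ZT12 libraries, the ratio of the higher to the lower RPKM was 1.85 for Per1, 1.19 for Per2, 2.47 for Cry1 and 1.06 for Cry2. Per1 had 6.50 (5.82 to 7.25) and 12.0 (11.1 to 13.0) RPKM in these libraries, with exact Poisson 95% intervals that did not overlap. Its SD of 0.56 on the log2(RPKM + 1) scale was larger than in 90.1% of tested genes at ZT12. At ZT0 the higher library exceeded the lower by 1.01-fold for Cry2, 1.04-fold for Cry1, 1.41-fold for Per1 and 1.51-fold for Per2. Depth was 12322651 and 11904184 reads in the ZT12 libraries.

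The courses of the genes were also compared as profiles over the 6 libraries, by the root mean square difference of centred log2(RPKM + 1). Per1 and Per2 differed by 0.54, which placed Per2 at rank 13 of 8354 tested genes from Per1, and Per1 at rank 17 from Per2. Cry2 lay at rank 81 from Per1 and rank 181 from Per2, at differences of 0.86 and 0.81, but from Cry2 the same genes stood at ranks 7209 and 6850. Cry1 differed by 1.71 from Per1, 1.52 from Per2 and 0.95 from Cry2, the last at rank 7712 of 8354 from Cry2. From Cry1, Per1 stood at rank 8343, so few tested genes differed more from Cry1 by this measure. The measure also grows with the size of a gene's swing, so such a rank does not by itself mean an opposite course. The nearest of all tested genes differed by 0.29 from Per1, 0.28 from Per2, 0.12 from Cry1 and 0.07 from Cry2, and none of these carries a symbol here. A gene with a small swing has many near neighbours, so ranks from different genes are not on 1 scale.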

How the data were processed

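Disome footprints were sequenced from 6 pools of 2 mouse livers. Per the labels' protocols, cycloheximide lysates received 650 U RNase I during 45 min before ribosomes were taken by size exclusion. The authors deposited RPKM values per Ensembl gene. Bowtie2 2.3.0, STAR, StringTie, edgeR, cutadapt and CASAVA 1.82, with builds GRCm38.p2 and mm10, are named per the submitters' processing notes. The role of each, the annotation and any filter on genes: not given in the sources used here. Whole reads were recovered from ratios between libraries (relative tolerance 3e-12) for 99.59% of 8941 genes and through coding length for 37. Recovered lengths were multiples of 3 for 95.16% of genes.

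All 6 libraries entered 1 limma fit (limma 3.58.1, R 4.3.3) on log2(RPKM + 1), with a mean per time point, a trended variance prior and a filter of a mean of 1 RPKM. The script was tested on simulated data. Nothing states that the libraries of a time point were separate cohorts, so p-values measure the spread between these pools. Symbols of the repressors came with the list of members, all of which are named by rule. The members and lists were chosen with earlier results of these data known. A list of other clock genes and the marker lists could not be matched, since no table used here pairs symbols with Ensembl identifiers (0 of 49997 RefSeq genes), and they were not tested.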

Additional observations from a re-analysis of the deposited data

How the results depend on the processing

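For ZT2 against ZT0, 0 of 4 repressors were called in each of 18 alternatives. Among the 4 repressors, 1 was called for ZT12 against ZT0, 2 for ZT12 against ZT2 and 2 by the F test over the time points. In that order, a pseudocount of 0.1 gave 0, 1 and 1, and a filter at 5 RPKM, which only Cry2 passes, gave 0, 0 and 0. A pseudocount of 5 gave 2 for ZT12 against ZT0, and the F test without the variance trend gave 1. When only the 4 libraries compared were fitted, ZT12 against ZT0 gave 3 and ZT12 against ZT2 gave 0. Voom on recovered reads gave 3 for ZT12 against ZT0, 3 for ZT12 against ZT2 and 3 by the F test. Omitting 1 library at a time gave 0 to 3 in each of the 3 tests, with a lone library assumed as variable as the rest. Apart from the filter, the cause was not tested. Of 272 values of single repressors, 229 stayed on their side of the threshold with no change of sign, 25 lost the call and 16 gained it. Another 2 changed sign and stayed uncalled. Most of these values had no call to lose, since only Per1 and Per2 were called. The Per1 call was lost in 5 of 17 alternatives (ZT12 against ZT0), 4 of 17 (ZT12 against ZT2) and 4 of 16 (F test). That of Per2 was lost in 6 of 17 (ZT12 against ZT2) and 6 of 16 (F test). The gains include Cry2 for ZT12 against ZT2 and by the F test where only the threshold was loosened, to 0.1. Both sign changes were for ZT2 against ZT0, in Per1 under quantile normalization, at 0.33, and in Cry2 without ZT2 replicate 1, at 0.026, where leaving out libraries ran from -0.23 to 0.026. With every library scaled to the same summed RPKM, the median log2 change over all tested genes was -0.11 (ZT2 against ZT0) and 0.17 (ZT12 against ZT2), and no call of a repressor changed. Deviations of libraries with the same replicate number correlated at -0.076, -0.019 and 0.018, so no strong shared effect of the number was seen. Whether such libraries were collected or prepared together cannot be told from this. A replicate block left 0, 1, 2 and 2 repressors called. Over all tested genes 2, 79, 172 and 105 were called, and the alternatives ran from 0 to 248, 3 to 283, 5 to 597 and 5 to 612. Depth limits Per1 and Per2 most at ZT2, where single libraries held 4 to 28 reads, and Per1 also at ZT0, with 11 and 17 reads.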
